A study of Homo sapiens with 9 samples.

Results

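The genes described here are the expressed members of the human zinc finger genes that carry only a number in their name. They were chosen by name and level: the symbol was ZNF followed by digits, and the mean over the 9 libraries was at least 8 FPKM (a fragment count divided by transcript length in kilobases and by library size). One gene that fits the name pattern was left out by the same rule. This gave 138 members of 478 numbered ZNF genes, in a table of 60671 rows. All 138 passed the filter on low values used for testing. The rule used the mean level over all libraries, so the levels below are a description. The rule names no difference between groups, but it was set with earlier results of these data known.

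The libraries came from AC16 cells, a single human line labelled as cardiomyocytes, which arose from a fusion of ventricular cells and fibroblasts. Chrysin is a flavonoid found in plants. Polyadenylated RNA was sequenced in 3 groups of 3 libraries: cells given high glucose together with chrysin, cells given high glucose alone, and cells given low glucose. The sources used here state neither doses nor durations for glucose and chrysin, nor whether a group's libraries came from separate cultures. The p-values therefore reflect the variation among these 9 libraries, which may be technical.

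Most proteins of this family bind DNA through runs of C2H2 zinc fingers, small folds in which paired cysteines and histidines hold a zinc ion. Many also carry a KRAB box, which recruits the co-repressor TRIM28 (KAP1) and, through it, the histone methyltransferase SETDB1 and HP1 proteins. KRAB proteins are known for silencing transposable elements, and many of their genes lie in clusters on chromosome 19. Members without KRAB include activators, parts of co-repressor complexes and proteins that bind RNA or ribosomes.

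Reads recovered from the FPKM steps totalled 18171842 to 23024300 per library, and a member had 113 to 3951 reads in a library. High glucose library 1 stood apart from its replicates. The SD of its log2 differences was 0.142 to library 2 and 0.155 to library 3, over 8916 genes, against 0.106 to 0.120 for the other pairs within a group. Counts are therefore also given without it. Of 12 cardiomyocyte markers 1 had a mean of at least 1 FPKM (NPPB), and MYL2 and NKX2-5 were at 0 in all libraries. All 8 fibroblast markers reached that level. Their summed level was 6346 to 6508 FPKM with chrysin, 9036 to 9511 FPKM in high glucose and 7631 to 7929 FPKM in low glucose. Smooth muscle markers reached it in 3 of 4 cases, with sums of 286 to 298 FPKM with chrysin, 182 to 197 FPKM in high glucose and 207 to 212 FPKM in low glucose. Epithelial markers did so in 3 of 4 cases, with sums of 233 to 243 FPKM with chrysin, 331 to 362 FPKM in high glucose and 300.2 to 314 FPKM in low glucose. Leukocyte markers reached it in 1 of 5 cases (CD3E was at 0) and endothelial markers in 0 of 4. Genes within a list did not all move together. With chrysin, in high glucose and in low glucose, TAGLN averaged 249, 152 and 169 FPKM, and CNN1 31.7, 33.6 and 37.8 FPKM. COL1A1 averaged 2900, 5140 and 3710 FPKM, and THY1 268, 264 and 207 FPKM. The other fibroblast markers were lower with chrysin than in high glucose, like COL1A1. ACTA2 and MYH11 were higher, like TAGLN. The part of these shifts in the results below was not tested.

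Member means ran from 8.02 to 84.1 FPKM with a median of 14.5, and 42 members had 20 FPKM or more. The 6 most abundant were ZNF131, a protein with a BTB domain, ZNF664, ZNF207, ZNF638, ZNF146, which consists almost only of zinc fingers, and ZNF706, a very small protein. At the other end, ZNF529 (8.13), ZNF827 (8.03) and ZNF544 (8.02) lay just inside the limit, and ZNF350 (7.94), ZNF462 (7.89) and ZNF283 (7.87) just outside it. A KRAB box was matched by pattern in the annotated protein of 59 members. A SCAN domain, which pairs such proteins with each other, was matched in 8, and both in 1. These counts can be too low, since the patterns miss divergent forms such as the KRAB box of ZNF263. The KRAB members had a median of 12 fingers and a transcript GC content of 44.1%, and 31 of 59 lay on chromosome 19. Members without KRAB had a median of 6 fingers and 51.8% GC, and 18 of 79 lay there. The median level of the KRAB members was 11.5 FPKM and that of the others 16.6 FPKM.

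Promoter sequence was available in RefSeq (GRCh38.p14) for 118 of the 138 members, and is given for the genes that head the named rises and falls below and have an entry with little annotated untranslated sequence. Each run is the 250 bases before the annotated start, read along the gene, and capitals mark the letters GCGTG on either strand, the core bound by the aryl hydrocarbon receptor with ARNT. ZNF93 (KRAB, chr19:19900696-19900945, + strand) was high with chrysin and low in high glucose. ZNF326 (chr1:89994860-89995109, + strand) was the reverse. ZNF629 (chr16:30787206-30787455, - strand) was higher in high glucose than in low glucose and higher again with chrysin.
ZNF93: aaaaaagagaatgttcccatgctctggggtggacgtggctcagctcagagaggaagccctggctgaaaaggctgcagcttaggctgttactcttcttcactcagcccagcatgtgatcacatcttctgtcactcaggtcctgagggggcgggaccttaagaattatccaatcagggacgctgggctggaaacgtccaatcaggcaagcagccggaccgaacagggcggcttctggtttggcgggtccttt
ZNF326: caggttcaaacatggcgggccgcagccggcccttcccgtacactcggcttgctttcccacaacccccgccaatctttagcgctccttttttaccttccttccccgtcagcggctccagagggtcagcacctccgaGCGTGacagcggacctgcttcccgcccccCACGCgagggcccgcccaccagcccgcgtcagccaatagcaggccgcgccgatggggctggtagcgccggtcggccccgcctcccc
ZNF629: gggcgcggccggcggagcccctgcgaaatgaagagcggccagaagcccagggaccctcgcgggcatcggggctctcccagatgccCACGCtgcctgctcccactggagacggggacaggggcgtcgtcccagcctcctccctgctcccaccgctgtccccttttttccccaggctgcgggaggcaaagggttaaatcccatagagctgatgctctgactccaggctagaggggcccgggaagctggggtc

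These 3 windows held 0, 2 and 1 such cores, in the order given. Over all members with a promoter entry 55 of 118 held it (46.6%), against 31.9% of 27305 promoters of all genes. It was found in 26 of 55 members called higher with chrysin and in 3 of 14 called lower. The E-box CACGTG was in 5.93% of member promoters against 6.49% of all promoters, the cAMP response element TGACGTCA in 6.78% against 1.77%, and the ATF4 element TGATGNAA in 0.847% against 3.19%. The ZNF143 site, searched as ACTACA and TCC with any 2 bases between them, was in 16 of 118 member promoters (13.6%) and in 1.98% of all promoters. ZNF143 is itself a member whose level differed between groups. Both strands were searched for all 5 motifs. The promoters of all genes were not matched to those of the members in expression level or GC content. A match is a description of the letters and not a sign of binding.

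For the 8 members called in the chrysin comparison that hold these letters, 1 site each is shown with 8 bases on each side, read along the strand of the motif, with the motif in capitals. ZNF420 and ZNF444 each hold 2 such sites. ZNF146 was called lower with chrysin and the other 7 higher. The 16 members with the site also include ZNF32, ZNF224, ZNF358, ZNF45, ZNF277, ZNF140, ZNF584 and ZNF260. These were not called in the chrysin comparison and are not shown. Of members with a promoter entry, 7 of 55 called higher and 1 of 14 called lower held the site. Among all 138 members 67 were called higher and 15 lower. The shares of all genes tested were 24.9% and 20.9%. Whether the site goes with these calls was not tested. The site of ZNF420 lies at chr19:37078369-37078395, that of ZNF180 at chr19:44500554-44500580 and that of ZNF331 at chr19:53520880-53520906. In all of these the motif is on the + strand.
ZNF420: agcgctggACTACATTTCCcagaggca
ZNF180: gagccagaACTACAATTCCcagaagcc
ZNF331: ggttatggACTACATTTCCcagaggcc
ZNF317: acttcaaaACTACAATTCCcagcatcc
ZNF268: gcaaaaaaACTACAACTCCcagaggcc
ZNF444: caccccgaACTACAACTCCcaggaagc
ZNF451: ggacccgaACTACAATTCCcagcatcc
ZNF146: ggccttggACTACATTTCCcttgaggc

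The remaining 5 sites lie at chr19:9140309-9140335 (ZNF317, + strand), chr12:133181435-133181461 (ZNF268, - strand), chr19:56141156-56141182 (ZNF444, - strand), chr6:57089987-57090013 (ZNF451, + strand) and chr19:36214966-36214992 (ZNF146, - strand). Strands given for sites are those of the motif and not of the gene. For the sites shown, the distance from motif to annotated start ran from 50 bases (ZNF180) to 193 bases (ZNF451).

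The first comparison asked how the members' levels differed when chrysin was added to high glucose. With chrysin, 67 of the 138 were higher and 15 lower than in high glucose alone (limma on log2(FPKM + 0.5), Benjamini-Hochberg adjusted p under 0.05 over 16996 genes). Members were thus called higher in 48.6% of cases, against 24.9% of all genes tested and 30.8% of genes of at least 8 FPKM. They were called lower in 10.9%, against 20.9% of all genes and 28.3% of those of at least 8 FPKM. The median log2 difference was 0.14 for members and 0.03 for all genes. The members were chosen with earlier results of these data known, so these shares are a description and not independent evidence. Without high glucose library 1 the counts were 63 higher and 15 lower. Levels in the 2 groups did not overlap for 94 of 138 members, against 54.3% of all genes tested and 5779 of 8916 genes of at least 8 FPKM. Fewer cells of a type and less RNA per cell cannot be told apart in such libraries.

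Differences were small, and no member doubled. ZNF721 (KRAB, chr4:425815-499156) had 12.5, 12.8 and 12.8 FPKM with chrysin, against 7.23, 9.03 and 6.84 FPKM in high glucose and 8.20, 7.22 and 7.30 FPKM in low glucose. Its chrysin libraries lay above both other groups, which overlapped each other, and its log2 difference was 0.70 ± 0.09, adjusted p = 0.00015 (limma, ± SE, as below). ZNF211 (KRAB, chr19:57630395-57642779) showed the same order, with 11.5, 11.6 and 11.3 FPKM with chrysin against 7.45, 7.33 and 6.22 FPKM in high glucose, a difference of 0.68 ± 0.09, adjusted p = 0.00011. For ZNF789 (KRAB, chr7:99472841-99503650) the values were 24.2, 22.7 and 24.5 FPKM with chrysin against 13.6, 16.01 and 15.4 FPKM in high glucose, a difference of 0.65 ± 0.07, adjusted p = 2.7e-05. ZNF789 overlaps ZNF394 on the other strand, and no source used here says if reads were counted by strand.

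ZNF263, a SCAN protein that overlaps TIGD7 on the other strand, had 29.1, 32.7 and 31.5 FPKM with chrysin and 21.5, 20.8 and 22.3 FPKM in high glucose. ZNF76, the close relative of the promoter activator ZNF143, had 37.6, 36.9 and 36.8 FPKM with chrysin and 25.2, 25.5 and 27.8 FPKM in high glucose. Neither pair of groups overlapped, and the differences were 0.52 ± 0.05, adjusted p = 1.4e-05 for ZNF263 and 0.50 ± 0.06, adjusted p = 6e-05 for ZNF76 (limma). ZNF93, a KRAB protein known to bind LINE-1 elements, had 11.2, 10.3 and 10.96 FPKM with chrysin, against 7.65, 6.67 and 8.15 FPKM in high glucose and 9.46, 9.11 and 9.83 FPKM in low glucose. The high glucose libraries of ZNF93 were the lowest 3 of the 9. The other named rises were ZNF155 (0.59), ZNF500 (0.57), ZNF251 (0.50), ZNF580 (0.50), ZNF587 (0.48) and ZNF83 (0.45). Of these ZNF155 shares 51.5% of its 75-base stretches with other annotated genes, ZNF587 35.2% and ZNF500 18.6%, so their levels are uncertain where reads could be split.

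The 15 members that fell with chrysin included several with well-described partners. ZNF326 (chr1:89995112-90035531), part of the DBIRD complex that links transcript elongation to splicing, had 8.14, 8.82 and 8.56 FPKM with chrysin, against 11.7, 13.3 and 12.5 FPKM in high glucose and 9.88, 10.2 and 10.1 FPKM in low glucose. The 3 groups did not overlap, with chrysin lowest and high glucose highest, and the chrysin difference was -0.53 ± 0.06, adjusted p = 5.2e-05 (limma). ZNF143, an activator bound at many promoters, had 15.9, 16.2 and 18.5 FPKM with chrysin, against 20.3, 23.8 and 24.1 FPKM in high glucose and 16.9, 17.01 and 19.4 FPKM in low glucose. Chrysin and low glucose libraries overlapped for ZNF143, both below high glucose, and the chrysin difference was -0.42 ± 0.08, adjusted p = 0.0019 (limma).

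ZNF706 had 42.7, 42.1 and 45.5 FPKM with chrysin and 58.5, 59.7 and 59.7 FPKM in high glucose (-0.45 ± 0.06, adjusted p = 8.1e-05, limma). ZNF217, which works in the CoREST and CtBP co-repressor complexes, had 25.9, 24.9 and 24.6 FPKM with chrysin against 30.3, 34.8 and 33.7 FPKM in high glucose (-0.38 ± 0.05, adjusted p = 0.00022, limma). Both genes' chrysin libraries also lay below all low glucose libraries. The other named falls were ZNF689 (-0.43), ZNF212 (-0.41), ZNF740 (-0.41), ZNF22 (-0.40), ZNF672 (-0.34), ZNF335 (-0.29), ZNF337 (-0.26) and ZNF532 (-0.21). ZNF337 lost its call without high glucose library 1 (adjusted p = 0.0613, limma), without high glucose library 2 (0.0508) or without chrysin library 3 (0.064). It shares 77.8% of its 75-base stretches with another gene, ZNF22 40.9% and ZNF740 16.7%.

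**Figure D1:**
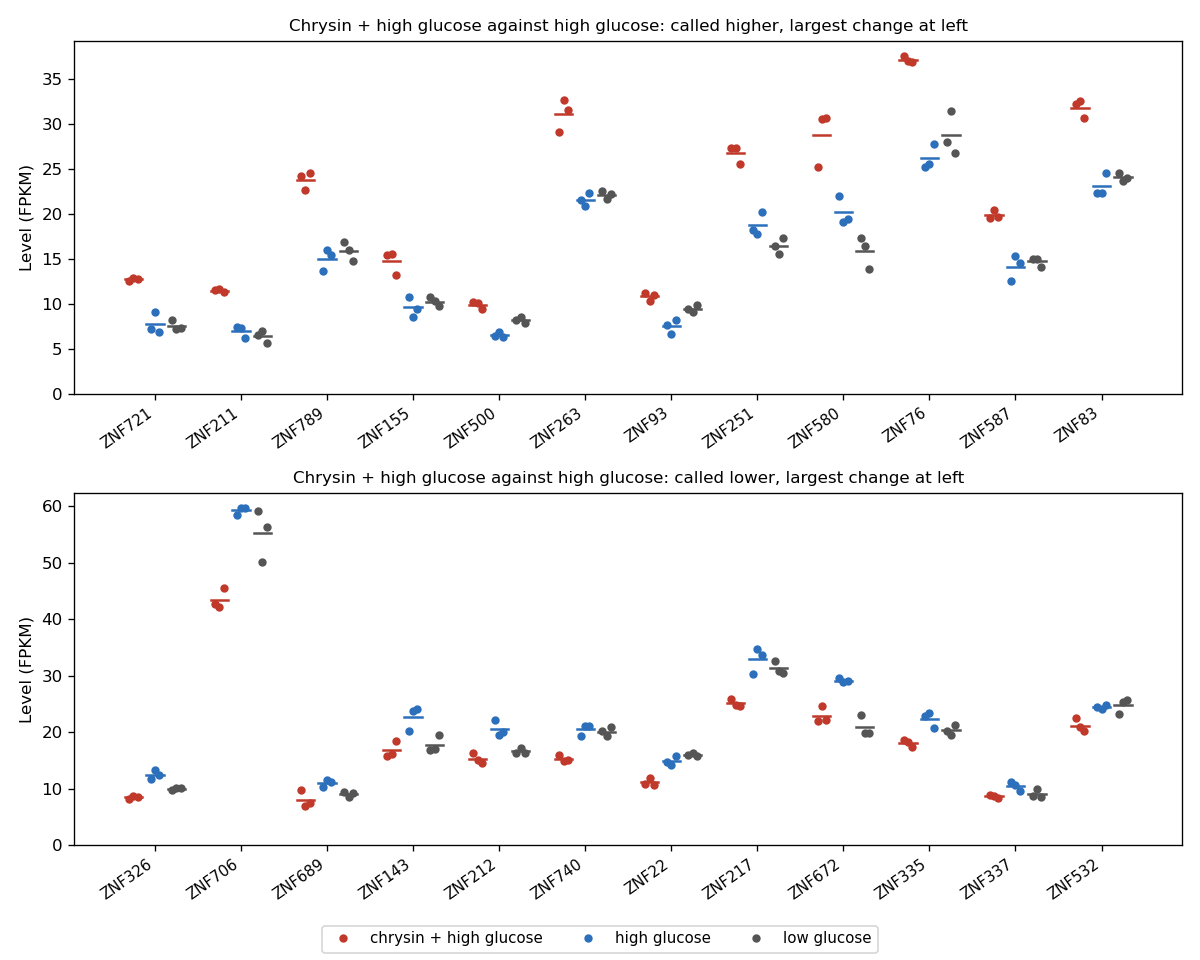
Level in FPKM (linear axis from 0) of the 12 members with the largest called rise (top) and the 12 with the largest called fall (bottom) with chrysin, by gene along the x axis. Points are libraries, 3 per group, and short lines are group means; for each gene the chrysin libraries lie clear of the high glucose ones, for example 12.5, 12.8 and 12.8 FPKM with chrysin against 7.23, 9.03 and 6.84 FPKM in high glucose for ZNF721.

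KRAB members were called higher with chrysin in 34 of 59 cases and lower in 4, with a median log2 difference of 0.25. Members without KRAB were called higher in 33 of 79 and lower in 11, with a median of 0.12. The difference between these classes was not tested. Genes of at least 8 FPKM were called higher in 30.8% and lower in 28.3% of cases. Without high glucose library 1 the KRAB counts were 31 and 3. Summed over the KRAB members, the level was 923 to 931 FPKM in the chrysin libraries, 787 to 813 FPKM in high glucose and 792 to 798 FPKM in low glucose, and chrysin libraries did not overlap the others. The sum over the other members was 1905 to 1925 FPKM with chrysin, 1764.5 to 1833 FPKM in high glucose and 1786 to 1800 FPKM in low glucose.

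The 8 SCAN members held 6 called higher and 0 called lower. On chromosome 19, 26 of 49 members were higher and 1 lower, and elsewhere 41 of 89 were higher and 14 lower. Numbered ZNF genes below the level limit, of which 286 could be tested, were called higher in 88 cases and lower in 21, with a median of 0.18. The 28 genes of at least 8 FPKM named ZBTB, ZSCAN, ZKSCAN or ZFP with a number were called higher in 10 cases and lower in 4, with a median of 0.07. Beside the counts of genes of at least 8 FPKM, 30.8% of all genes of that level were called higher and 28.3% lower. For all genes tested, at any level, the shares were 24.9% and 20.9%. Neither share is matched in level to the ZNF genes below the limit. In members with a transcript GC content under 45% the count was 35 higher and 8 lower of 63, and at 55% or more it was 16 and 4 of 39. All genes tested in these classes were called higher in 23.9% and 24.4% of cases, and lower in 21.1% and 22.9%, the low GC class first. These are counts over classes that share members, given without a test.

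**Figure D2:**
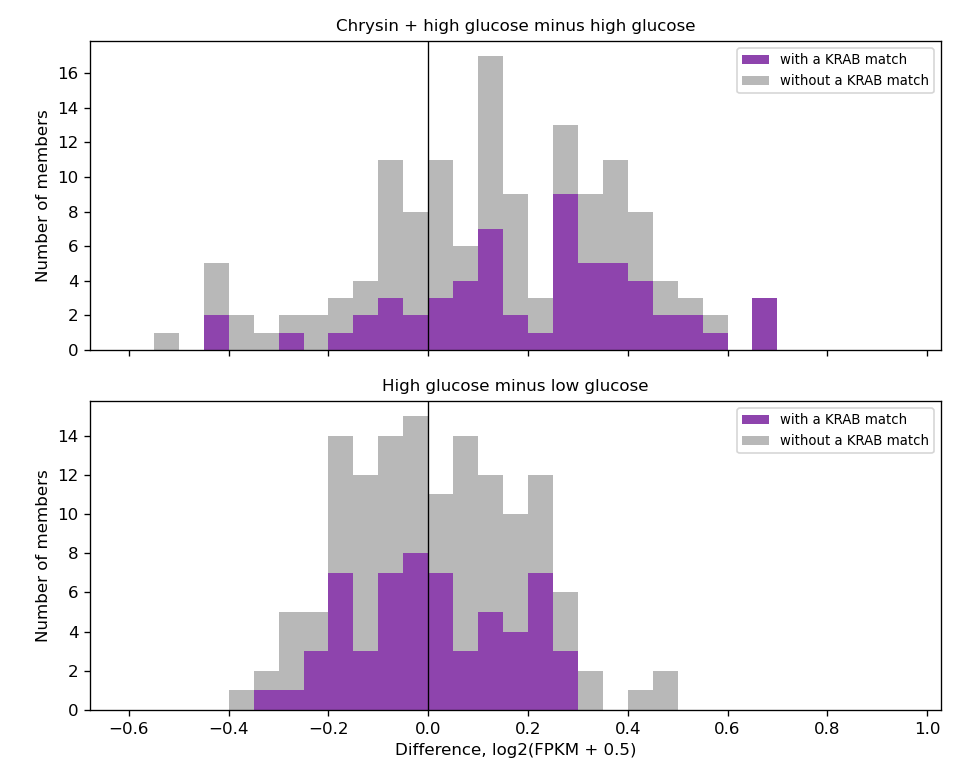
Number of members (y axis) by log2 difference (x axis, log2(FPKM + 0.5)), for chrysin with high glucose minus high glucose (top) and high glucose minus low glucose (bottom), stacked by KRAB match. The median was 0.25 for KRAB members and 0.12 for the others in the top panel, against -0.005 for KRAB members and 0.0073 for the others in the bottom panel.

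**Figure D3:**
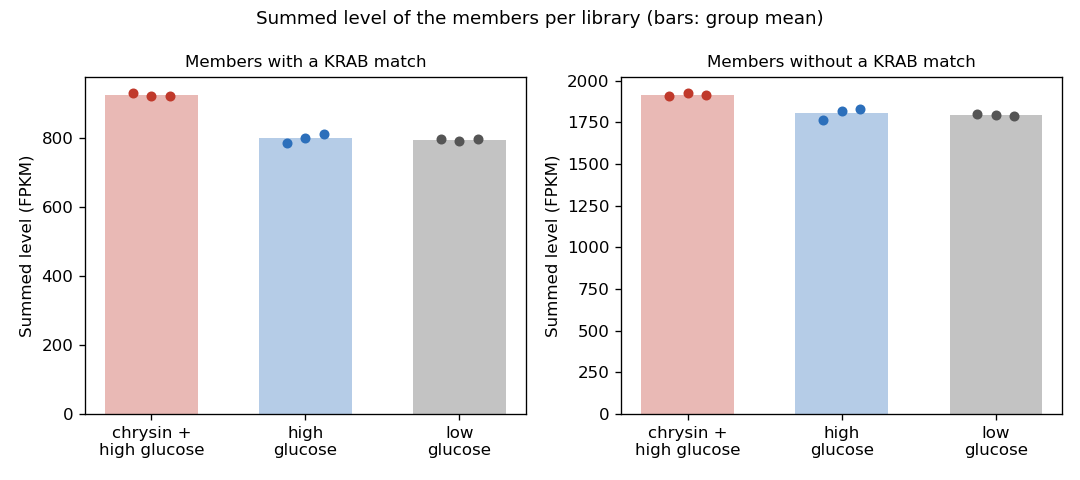
Summed FPKM of the 59 members with KRAB (left) and the 79 without (right), with points for libraries and bars for group means on axes from 0. The KRAB sum was 923 to 931 FPKM in the 3 chrysin libraries and 787 to 813 FPKM in high glucose.

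The second comparison, high glucose against low glucose, gave no main direction among the members. In high glucose 21 members were higher (15.2%, against 14.6% of all genes tested and 21.8% of genes of at least 8 FPKM) and 15 lower (10.9%, against 8.91% and 13.2%). The median log2 difference was 0.004 for members and 0.02 for all genes. KRAB members were called higher in 5 cases and lower in 4, and lower in 1 without high glucose library 1. The balance of directions turned with the scaling: median-of-ratios scaling called 17 higher and 21 lower, limma voom on recovered reads 18 and 28, and a correction for GC content and length 21 and 25. Among all genes the higher share of calls was 62.2%, with 51.5% under median-of-ratios scaling, 51.2% with voom and 58.8% after the GC and length correction. Without high glucose library 1 the member counts were 19 and 12. Levels did not overlap for 59 of 138 members, against 37.9% of all genes tested and 4364 of 8916 genes of at least 8 FPKM.

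ZNF629 (chr16:30778449-30787202, 19 fingers, no KRAB) had the largest rise of the named members. Its level was 11.7, 12.02 and 10.9 FPKM in high glucose and 7.90, 8.08 and 8.13 FPKM in low glucose, a difference of 0.49 ± 0.06, adjusted p = 0.00017 (limma). With chrysin it stood at 16.4, 15.6 and 15.7 FPKM, above both, so the 3 groups did not overlap. ZNF672 followed, with 29.5, 28.9 and 28.99 FPKM in high glucose and 23.1, 19.9 and 19.9 FPKM in low glucose (0.47 ± 0.06, adjusted p = 0.00055, limma). ZNF134 had 18.1, 17.1 and 18.4 FPKM in high glucose and 13.4, 13.8 and 12.9 FPKM in low glucose (0.40 ± 0.05, adjusted p = 0.00024, limma).

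The rise of ZNF143 was 0.34, and it was no longer called without high glucose library 2 (adjusted p = 0.051, limma) or low glucose library 1 (0.0502). ZNF580 rose by 0.34, a call lost without high glucose library 1 (adjusted p = 0.086, limma), without low glucose library 3 (0.0935) or with no filter (0.0785). The other named rises were ZNF212 (0.30), ZNF326 (0.30), ZNF480 (0.29), ZNF318 (0.27), which is known in B cells for the long transcripts that give IgD, ZNF24 (0.26), a SCAN protein, ZNF791 (0.23) and ZNF574 (0.23). ZNF574 lost its call in 5 of 18 alternatives, among them without high glucose library 1 (adjusted p = 0.0656, limma), high glucose library 2 (0.0564), low glucose library 1 (0.0837) or low glucose library 3 (0.0567).

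Among the falls, ZNF581 had 16.3, 17.1 and 17.1 FPKM in high glucose and 23.8, 21.98 and 21.3 FPKM in low glucose (-0.40 ± 0.07, adjusted p = 0.0017, limma). It overlaps ZNF580 on the same strand and shares 14.4% of its 75-base stretches with it, while ZNF580 itself rose, so the split of reads between them is uncertain. ZNF473, which binds the U7 particle in histone messenger RNA processing, had 13.1, 12.97 and 13.2 FPKM in high glucose and 16.2, 15.6 and 15.9 FPKM in low glucose (-0.27 ± 0.04, adjusted p = 0.0014, limma). Its high glucose libraries were all below its low glucose ones. ZNF639 had 18.6, 18.9 and 19.2 FPKM in high glucose and 21.98, 22.6 and 25.002 FPKM in low glucose (-0.29 ± 0.05, adjusted p = 0.0035, limma), and its chrysin libraries, at 18.3, 18.04 and 17.2 FPKM, were lower still.

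The remaining named falls were ZNF93 (-0.32), ZNF500 (-0.31), ZNF692 (-0.28), ZNF330 (-0.25), ZNF277 (-0.23), ZNF614 (-0.22), ZNF496 (-0.21), ZNF561 (-0.19) and ZNF519 (-0.19). Of these ZNF561 lost its call in 9 of 18 alternatives (adjusted p up to 0.136, without low glucose library 3, limma) and ZNF519 in 10 (up to 0.116, without low glucose library 1). ZNF692 was not called without high glucose library 1 (0.0691) or low glucose library 2 (0.0749). ZNF614 was not called without high glucose library 1 (0.0504), high glucose library 2 (0.0592) or low glucose library 3 (0.0719), and ZNF330 not without low glucose library 1 (0.0537).

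**Figure D4:**
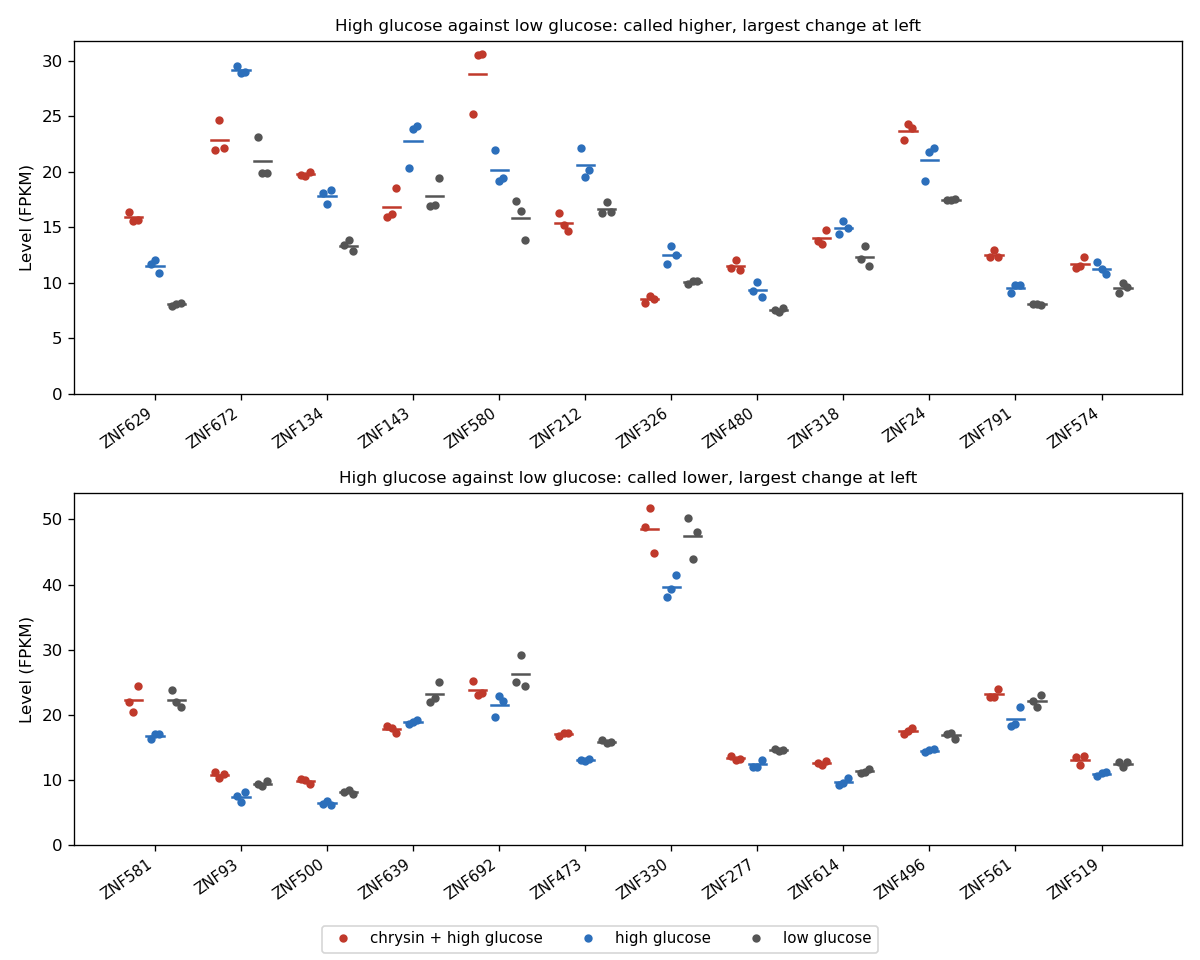
Level in FPKM (linear axis from 0) of the 12 members with the largest called rise (top) and the 12 with the largest called fall (bottom) in high glucose against low glucose. Points are libraries and short lines group means, with chrysin libraries also shown; ZNF629 had 11.7, 12.02 and 10.9 FPKM in high glucose and 7.90, 8.08 and 8.13 FPKM in low glucose.

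The chrysin and glucose comparisons share the high glucose libraries, so the calls in both are set side by side here and their number is not a result. There were 11 members higher with chrysin and lower in high glucose than in low glucose: ZNF330, ZNF598, ZNF593, ZNF561, ZNF581, ZNF496, ZNF473, ZNF519, ZNF614, ZNF93 and ZNF500. ZNF672, ZNF143, ZNF212 and ZNF326 had the opposite pair of calls. For ZNF473 the chrysin libraries stood at 16.8, 17.2 and 17.2 FPKM, beside 13.1, 12.97 and 13.2 FPKM in high glucose and 16.2, 15.6 and 15.9 FPKM in low glucose. A further 12 members were called higher in both: ZNF207, ZNF638, ZNF384, ZNF580, ZNF24, ZNF251, ZNF302, ZNF346, ZNF134, ZNF629, ZNF791 and ZNF480. Of these ZNF251 lost its call against low glucose in 13 of 18 alternatives (adjusted p up to 0.158, without low glucose library 2, limma), and ZNF134 lost its chrysin call in 7 (up to 0.108, without high glucose library 2).

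The third comparison set chrysin with high glucose against low glucose, so both treatments differ between its groups. With chrysin 59 members were higher (42.8%, against 29.7% of all genes tested and 36.8% of genes of at least 8 FPKM) and 16 lower (11.6%, against 21.3% and 28.6%). Without low glucose library 1 the lower count was 10. ZNF629 had the largest difference (0.94 ± 0.06, adjusted p = 3.5e-07, limma). ZNF580 had 25.2, 30.5 and 30.6 FPKM with chrysin and 17.3, 16.4 and 13.8 FPKM in low glucose (0.84 ± 0.10, adjusted p = 3.4e-05, limma). For ZNF211 the difference was 0.80, for ZNF721 0.71, for ZNF251 0.69 and for ZNF420 0.62.

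ZNF707, ZNF791, ZNF480, ZNF789, ZNF302 and ZNF134 completed the named rises at 0.55 to 0.60. ZNF22 had the largest fall, with 10.9, 11.99 and 10.8 FPKM with chrysin and 16.01, 16.4 and 15.8 FPKM in low glucose (-0.50 ± 0.06, adjusted p = 4.7e-05, limma). It was followed by ZNF740 (-0.38), ZNF639 (-0.37), ZNF414 (-0.36), ZNF706 (-0.34), ZNF217 (-0.31), ZNF529 (-0.29), ZNF326 (-0.23), ZNF282 (-0.23), ZNF532 (-0.22), ZNF579 (-0.20) and ZNF627 (-0.20). ZNF627 lost its call in 10 of 18 alternatives (adjusted p up to 0.154, without low glucose library 2, limma) and ZNF529 in 7 (up to 0.136, without chrysin library 3). ZNF414 was not called without chrysin library 3 (0.0819), low glucose library 1 (0.0666) or low glucose library 3 (0.0637). ZNF579 was not called without chrysin library 1 (0.0512) or low glucose library 2 (0.0537), and ZNF326 not after the GC and length correction (0.0557).

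By role, the members tied to RNA, ribosomes and translation rose with chrysin in 6 of 11 cases and fell in 1, ZNF326, with a median log2 difference of 0.15. Of genes of at least 8 FPKM 30.8% were higher and 28.3% lower. ZNF593, whose yeast relative Bud20 helps export the large ribosomal subunit, had 47.2, 47.8 and 46.8 FPKM with chrysin, against 36.9, 35.02 and 35.2 FPKM in high glucose and 40.5, 40.4 and 39.6 FPKM in low glucose (0.40 ± 0.03, adjusted p = 5.6e-06 against high glucose, limma). Its 3 groups did not overlap, but 88.3% of its 75-base stretches also lie in an overlapping gene on the other strand. ZNF622, a late maturation factor of the large subunit, had 32.6, 31.01 and 29.98 FPKM with chrysin and 24.5, 25.1 and 23.4 FPKM in high glucose (0.35 ± 0.06, adjusted p = 0.00054, limma).

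ZNF330, a nucleolar protein, had 48.9, 51.8 and 44.9 FPKM with chrysin and 38.2, 39.3 and 41.4 FPKM in high glucose (0.29 ± 0.06, adjusted p = 0.0031, limma). ZNF346, which binds double-stranded RNA, differed by 0.24, and ZNF638, an RNA-binding protein, by 0.17. ZNF598, the ubiquitin ligase that marks collided ribosomes, had 41.1, 43.2 and 44.2 FPKM with chrysin and 40.3, 38.4 and 37.96 FPKM in high glucose. Its groups did not overlap but stood close together (0.14 ± 0.04, adjusted p = 0.016, limma), and the call was lost without high glucose library 2 (adjusted p = 0.0515), high glucose library 3 (0.0551), chrysin library 2 (0.0512) or chrysin library 3 (0.0688). ZNF106 (0.13), ZNF692 (0.15), ZNF277 (0.10) and ZNF830 (-0.09) were not called. Set against low glucose, high glucose had 3 of this group higher (ZNF638, ZNF346 and ZNF326) and 5 lower (ZNF330, ZNF598, ZNF593, ZNF692 and ZNF277). ZNF346 lost that call in 11 of 18 alternatives (adjusted p up to 0.112, without low glucose library 1, limma) and ZNF598 in 7 (up to 0.113, without low glucose library 1). Leaving out low glucose library 1 or 2 made the lower count of the list 3. All genes tested were higher in 14.6% and lower in 8.91% of cases, and genes of at least 8 FPKM in 21.8% and 13.2%.

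Genes that act with these proteins were listed as well. Of 18 tested genes of large-subunit maturation, 11 rose with chrysin and 1 fell, with a median of 0.21. GTPBP4 (0.54), BOP1 (0.52) and LSG1 (0.48), a GTPase of late maturation, were among the rises, and EIF6 (-0.21) was the fall. In high glucose against low glucose 5 rose and 2 fell, against 14.6% and 8.91% of all genes. Among genes of at least 8 FPKM 21.8% were higher and 13.2% lower. Without high glucose library 1 the counts of this list were 2 and 1, and over the 18 alternatives they were 2 to 5 and 1 to 3. Of 21 genes of ribosome quality control 7 rose and 5 fell with chrysin, with a median of 0.02. OTUD3, a deubiquitinase, differed by 0.69 and ANKZF1, which releases stalled chains, by -0.58. With chrysin against high glucose 24.9% of all genes tested were higher and 20.9% lower. Among genes of at least 8 FPKM 30.8% were higher and 28.3% lower. Without high glucose library 1 the fall count of the large-subunit list was 2.

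ZNF207 (BuGZ), which helps BUB3 load on kinetochores, had 85.2, 86.1 and 84.04 FPKM with chrysin, against 75.1, 76.9 and 80.8 FPKM in high glucose and 67.6, 67.7 and 68.2 FPKM in low glucose. The 3 groups did not overlap (0.13 ± 0.03, adjusted p = 0.0063 against high glucose, limma). ZNF451, a SUMO ligase, had a difference of 0.20 ± 0.07, adjusted p = 0.033 (limma), with overlapping groups, and lost its call in 7 of 18 alternatives, among them without high glucose library 1 (adjusted p = 0.109), high glucose library 2 (0.0915), chrysin library 2 (0.12) or chrysin library 3 (0.10).

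Of 11 members of co-repressor and chromatin complexes 4 were lower and 1 higher with chrysin, with a median of -0.05. This stands beside 28.3% lower and 30.8% higher among genes of at least 8 FPKM. Over the 18 alternatives 3 to 5 were lower and 1 to 2 higher, with 2 higher without chrysin library 1. The 4 were ZNF217, ZNF335 (a subunit of a histone methyltransferase complex), ZNF532 and ZNF292. ZNF335 had 18.6, 18.3 and 17.4 FPKM with chrysin and 22.9, 23.4 and 20.7 FPKM in high glucose (-0.29 ± 0.06, adjusted p = 0.0017, limma). ZNF292 overlapped between groups (-0.20 ± 0.07, adjusted p = 0.034, limma) and lost its call in 7 of 18 alternatives, among them without high glucose library 2 (adjusted p = 0.118), high glucose library 3 (0.117), chrysin library 2 (0.0714) or chrysin library 3 (0.118). The 1 that rose was ZNF703, with 11.03, 13.01 and 12.1 FPKM with chrysin and 9.91, 9.63 and 9.15 FPKM in high glucose (0.32 ± 0.07, adjusted p = 0.0032, limma).

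ZNF687 (0.13), ZNF592 (-0.09) and ZNF532 (-0.21) are known to work together with ZMYND8, and of the 3 ZNF532 was called. ZNF644 (-0.01), ZNF609 (-0.03), ZNF219 (-0.05) and ZNF827 (-0.01) were not called. Of 13 partner genes 7 were lower and 2 higher with chrysin, with a median of -0.19, against 20.9% lower and 24.9% higher among all genes tested. Among genes of at least 8 FPKM 28.3% were lower and 30.8% higher. Leaving out library 2 or 3 of either group made the higher count of the partner genes 1. ZMYND8 itself fell by 0.41 on the log2 scale and KDM5C, a histone demethylase, by 0.44. KDM1A, the demethylase of the CoREST complex, differed by -0.01 and was not called. Between high and low glucose 6 partner genes were higher and 1 lower in high glucose, against 14.6% and 8.91% of all genes tested. Among genes of at least 8 FPKM 21.8% were higher and 13.2% lower. Over the 18 alternatives the counts of partner genes were 2 to 6 and 1 to 3. The higher count was 2 without high glucose library 2 and 3 without any 1 of the low glucose libraries. Among the 11 members of co-repressor and chromatin complexes ZNF687 alone was called (0.22 ± 0.06, adjusted p = 0.014, limma). This call was lost after the GC and length correction (adjusted p = 0.0511). Without high glucose library 1 the count of these 11 called higher was 3, and without high glucose library 3 it was 2.

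Sequence-specific regulators without a KRAB match were higher with chrysin in 6 of 9 cases and lower in 2, ZNF143 and ZNF740, against 30.8% and 28.3% of genes of at least 8 FPKM. ZNF148 (ZBP-89) had 34.2, 33.998 and 33.7 FPKM with chrysin and 27.6, 30.4 and 31.6 FPKM in high glucose (0.19 ± 0.05, adjusted p = 0.01, limma). ZNF367 had 15.3, 16.2 and 15.6 FPKM with chrysin and 12.4, 12.6 and 13.2 FPKM in high glucose (0.29 ± 0.05, adjusted p = 0.0012, limma). ZNF384 (0.12) and ZNF24 (0.17) were called by small differences. Both calls were lost under median-of-ratios scaling (adjusted p = 0.0626 for ZNF384 and 0.0596 for ZNF24, limma). ZNF24 also lost its call without high glucose library 1 (0.0796), chrysin library 2 (0.0955) or chrysin library 3 (0.0832). ZNF384 lost its call without high glucose library 3 (0.0526) or chrysin library 2 (0.0797). ZNF281 (-0.17) was not called.

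**Figure D5:**
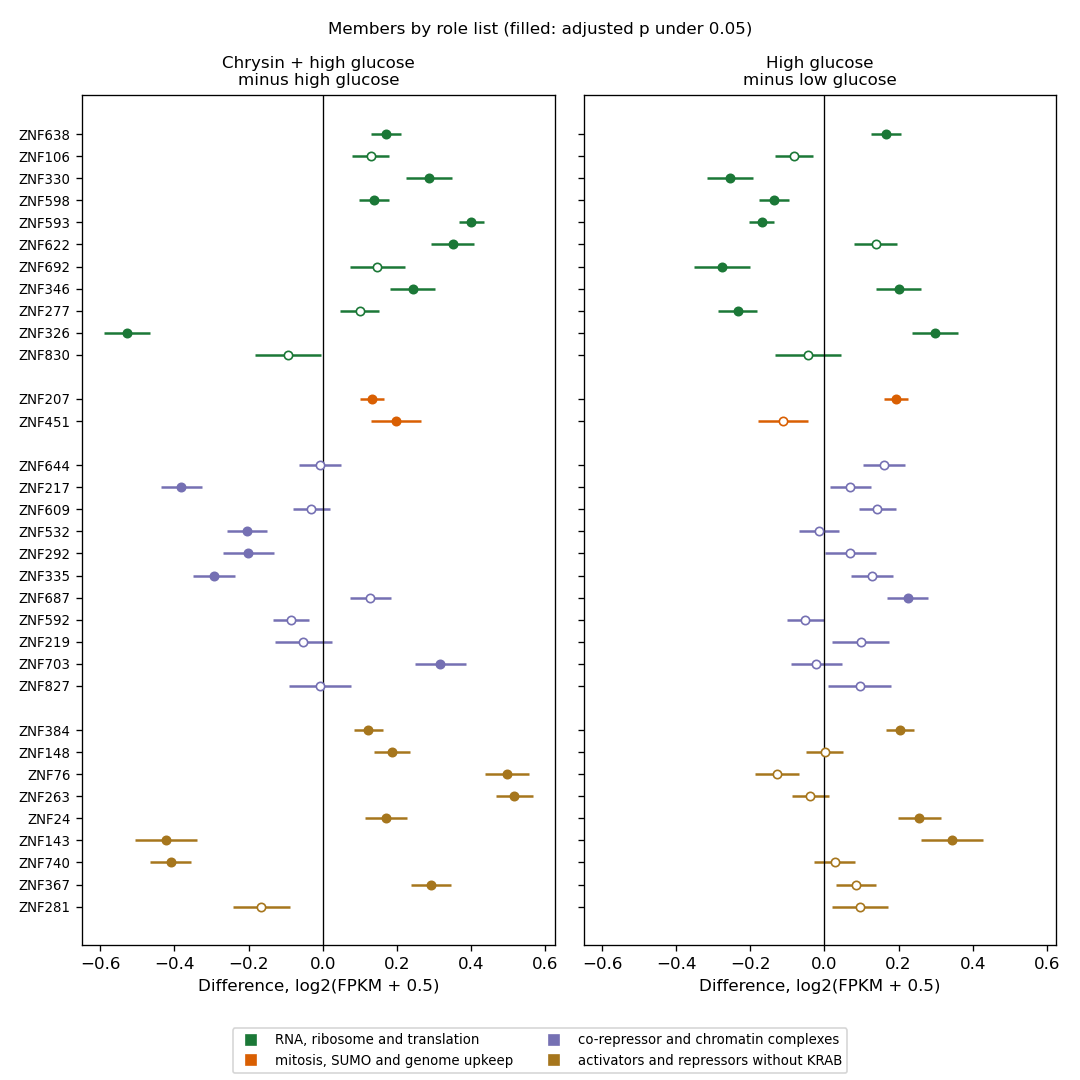
Log2 difference in FPKM + 0.5 (x axis, ± SE from limma) of each member of the role lists (y axis), for chrysin with high glucose minus high glucose (left) and high glucose minus low glucose (right). Filled points have an adjusted p under 0.05; in the left panel 6 of 11 RNA and ribosome members are filled on the right of 0 and 4 of 11 co-repressor members on the left.

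Of 25 tested genes of the silencing machinery that KRAB proteins use, 5 were higher and 8 lower with chrysin, with a median of -0.01, against 24.9% and 20.9% of all genes tested. Among genes of at least 8 FPKM 30.8% were higher and 28.3% lower. The higher count of the list was 8 after the GC and length correction. TRIM28 averaged 501 FPKM with chrysin and 587 FPKM in high glucose, a difference of -0.22. SETDB1 (0.07) was not called, and of the HP1 genes CBX5 was higher (0.27) and CBX1 (-0.21) and CBX3 (-0.10) lower. MORC2 (0.44) and PPHLN1 (0.30), both tied to HUSH silencing, were higher, while TASOR (-0.21) was lower. Compared with low glucose, 12 of the 25 were higher in high glucose and 1, SETDB1 (-0.22), was lower, against 14.6% and 8.91% of all genes tested. Among genes of at least 8 FPKM 21.8% were higher and 13.2% lower. Over the 18 alternatives 8 to 13 of the 25 were higher.

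The most abundant members showed small differences. ZNF131 had 90.6, 84.8 and 85.2 FPKM with chrysin, against 74.5, 80.9 and 81.5 FPKM in high glucose and 85.9, 89.1 and 84.2 FPKM in low glucose. Its chrysin difference of 0.14 ± 0.04, adjusted p = 0.022 (limma) was lost without high glucose library 1 (adjusted p = 0.0629), without chrysin library 1 (0.0883) or under median-of-ratios scaling (0.0611). ZNF146 fell by 0.10 with chrysin, a call lost in 7 of 18 alternatives, among them without high glucose library 2 (adjusted p = 0.0906, limma), high glucose library 3 (0.102), chrysin library 1 (0.0622) or chrysin library 3 (0.107). ZNF664 differed by 0.02 and was not called.

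Among the 138, 35 were called in none of the 3 comparisons. Of those called with chrysin against high glucose, 58 of 67 rises and 11 of 15 falls were called in every one of 18 alternatives. Between high and low glucose this held for 13 of 21 rises and 8 of 15 falls, and for chrysin against low glucose for 52 of 59 and 8 of 16. The matching shares over all genes, for calls in no comparison or in every alternative, are not given here. Sequence shared with other genes bears on some of these: 26 members share at least 10% of their 75-base stretches, and of these 12 were higher and 3 lower with chrysin against high glucose. Of the 112 others 55 were higher and 12 lower. In this comparison 24.9% of all genes tested were higher and 20.9% lower. Among genes of at least 8 FPKM the shares were 30.8% and 28.3%. The annotation places a gene on the other strand over 82 members.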

How the data were processed

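The 9 libraries were grouped by their treatment labels, 3 to a group. The authors deposited FPKM values; no header names the unit, which was inferred from the numbers. Per the submitters' processing notes, the tools were HTSeq 0.13.5, StringTie 2.2.1, HISAT2 2.2.1 and fastp 0.23.4 with build hg38. Their roles, the annotation and the use of strand are not stated in the sources at hand. Each gene's FPKM values are whole multiples of a step, and whole reads were recovered for 28230 of 28230 genes above 0 in 2 or more libraries (within 0.00037 reads).

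Differences were tested in R 4.3.3 with limma 3.58.1, two-sided, using log2(FPKM + 0.5) and a trended prior variance, for 16996 genes that averaged 0.5 FPKM or more in any group. One fit held all libraries, and p-values were adjusted by Benjamini-Hochberg over all genes. The fit was tested on simulated data. Differences on this scale understate changes of low genes. Members, lists, classes and motifs were chosen with earlier results of these data known. Named were, per comparison, up to 12 called rises and 12 called falls with the largest differences among members whose groups did not overlap, the 6 most abundant members, those at the limit, and role lists. KRAB boxes were matches at 12 or more of 16 positions in GENCODE 29 translations, not in RefSeq proteins as planned, and divergent boxes (such as those of ZNF263, ZNF473 and ZNF496) count as without KRAB. Gene positions, GC content and overlaps came from GENCODE 29 on hg38, and promoters from RefSeq.

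Alternatives comprised pseudocounts of 0.1 and 1, other filters (none, or 5 FPKM), median-of-ratios scaling, limma voom with recovered reads, a replicate block, fits of the 2 groups alone, a loess correction for GC content and length (16715 genes), and leaving out each library.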

Additional observations from a re-analysis of the deposited data

How the results depend on the processing

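The counts of members called higher stayed within 1.5 times their value under all 18 alternatives in all 3 comparisons. In high against low glucose the lower count of 15 became 25 with the GC and length correction, 28 with limma voom on recovered reads and 12 to 14 with 1 library left out. For chrysin against low glucose the lower count of 16 was 23 under median-of-ratios scaling, 24 with voom and 10 to 18 with 1 library left out. Same-numbered libraries' deviations correlated at -0.015 to 0.008. They thus did not deviate together, but this cannot show whether libraries were prepared in pairs. With the replicate block the counts were 65 higher and 13 lower with chrysin against high glucose, 19 and 14 in high against low glucose, and 59 and 13 with chrysin against low glucose. The planned voom fit with TMM scaling was not run, and median-of-ratios library sizes, chosen after seeing the data, took its place. The cause of these changes was not tested.

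Signs changed for differences near 0 that were not called. With chrysin against high glucose, the GC and length correction gave 0.0476 for ZNF219, 0.0338 for ZNF644 and 0.0210 for ZNF827, and median-of-ratios scaling gave -0.0064 for ZNF664. In high against low glucose, ZNF148 became -0.0262 with voom and -0.0277 under median-of-ratios scaling, ZNF740 became -0.0002 under the same scaling, and ZNF532 became 0.0007 with the GC and length correction. With 1 library left out the chrysin values ranged over -0.1022 to 0.0103 for ZNF219, -0.0710 to 0.0098 for ZNF609, -0.0811 to 0.0418 for ZNF644 and -0.0880 to 0.0703 for ZNF827. The glucose values ranged over -0.0406 to 0.0560 for ZNF148, -0.0621 to 0.0131 for ZNF532, -0.0474 to 0.0075 for ZNF703, -0.0006 to 0.0723 for ZNF740 and -0.1330 to 0.0052 for ZNF830. Members had at least 113 reads in each library, and how depth bears on their precision was not tested.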
